A study of Mus musculus with 4 samples.

Results

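The genes described here encode the nuclear subunits of the mitochondrial respiratory chain and of ATP synthase. Members were chosen by symbol alone, as genes named Nduf followed by a, b, c, s or v and a number (complex I), Sdha to Sdhd (complex II), Uqcr (complex III), Cox4 to Cox8 (complex IV) or Atp5 (ATP synthase). The rule found 83 genes of the 24669 with a UMI in the cells used, with 35 in complex I, 4 in complex II, 8 in complex III, 19 in complex IV, where Ndufa4 was counted, and 17 in ATP synthase. Electrons from NADH enter the chain at complex I and those from succinate at complex II, pass through complex III and reach oxygen at complex IV, while the proton gradient that complexes I, III and IV build drives ATP synthase. Some complex IV subunits exist as tissue isoforms, among them Cox4i2, known as the isoform of low oxygen, and Cox6a2, Cox7a1 and Cox8b, known from striated muscle. Growing cartilage holds no vessels, and its cells are known for strong glycolysis.

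The study asked how glucose use bears on the formation of the interzone, the strip of cells that separates the future bones of a joint. Cells from presumptive knee joints of mouse embryos were profiled by droplet RNA sequencing of transcript 3' ends in 4 libraries, 1 per group. Both control libraries, of embryonic days E13.5 and E14.5, are titled E13.5WT and E14.5WT and carry the label of no Cre, and the labels do not give the floxed alleles of these embryos. The other libraries, both of E14.5, are labelled E14.5G1KO, with the genotype Prx1cre;Glut1f/f;Glut3f/+, and E14.5dKO, with the genotype Prx1cre;Glut1f/f;Glut3f/f, which the study calls DCKO. Glut1 is the gene Slc2a1 and Glut3 the gene Slc2a3, both glucose transporters. Prx1Cre acts in the early mesenchyme of the limb bud, so that muscle, vessel and blood cells are in general not its targets. How many embryos were pooled in a library is not stated. Wherever 4 values are listed without names, they stand in the order E13.5 control, E14.5 control, the library labelled E14.5G1KO and the library labelled E14.5dKO. With 1 library per group no difference has a replicate check, so values carry 95% intervals of counting error only.

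The libraries held 12769, 9707, 11690 and 11602 cell barcodes with 100344565, 84188147, 97110697 and 91574038 UMIs (unique molecule counts). After cells outside 200 to 6000 genes or above 10% mitochondrial UMIs were left out, 12446, 9305, 11264 and 11305 cells remained, with a median of 6176, 7279, 6757 and 6379 UMIs. Any pair of libraries shared between 25 and 40 barcodes, at most 0.381% of a library. No doublets were removed, since a doublet caller marked 0, 2, 0 and 1 cells and so gave no usable call. Cells were sorted into classes by ranges of marker scores, which are gates rather than cell types. Interzone-gated cells numbered 2688, 1321, 1488 and 630, or 21.6, 14.2, 13.2 and 5.57% of the kept cells, so that most cells of the tissue labelled interzone lay outside this gate. Chondrocyte-gated cells numbered 515, 3699, 3478 and 4132, prehypertrophic-gated cells 283, 341, 465 and 687, fibroblast-gated cells 716, 673, 1120 and 1014, osteogenic-gated cells 1368, 201, 345 and 387 and tendon-gated cells 659, 540, 551 and 427, and these 6 classes together are called skeletal. Within 0.1 score units of a gate boundary lay 9.74% of interzone-gated, 8.85% of chondrocyte-gated, 17.0% of fibroblast-gated and 12.1% of osteogenic-gated cells. Over interzone-gated cells the median interzone score was 1.35 and the median chondrocyte score -0.43, and over chondrocyte-gated cells these medians were -0.41 and 1.01.

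The targeted genes were read first. Slc2a1 stood at 48.1, 64.7, 339 and 428 CPM (counts per 1000000 UMIs) in all kept cells and at 55.7, 70.2, 369 and 437 CPM in skeletal cells. The level was therefore highest in the pair of libraries whose label gives a deletion of this gene, which goes against those labels at the level of 3' tags. Slc2a3 stood at 5.13, 3.38, 4.32 and 2.70 CPM in kept cells. It was lowest in the library labelled E14.5dKO and above the E14.5 control in the library labelled E14.5G1KO. The 3' tags may lie outside the floxed part of either gene, in which case they check nothing about the deletion. Both libraries are therefore named by their labels throughout, and every genotype direction given here rests on those labels. The share of interzone-gated cells given above fell from the E14.5 control to E14.5G1KO and again to E14.5dKO. The study reports the same order for its Gdf5-expressing cells. Xist, transcribed from the inactive X chromosome, stood at 790.1, 0.202, 986 and 888 CPM, and the Y-linked Ddx3y at 20.2, 85.2, 0 and 0 CPM. The E14.5 control was thus near 0 for Xist and the libraries labelled as deleted were at 0 for Ddx3y, while the E13.5 control held both, so that sex and genotype cannot be told apart.

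Members took 2.84, 2.49, 2.57 and 2.46% of the UMIs of kept cells. Of the 83 members, 78 had at least 1000 UMIs over all libraries, the others being Cox6a2, Cox7a1, Cox7b2, Cox8b and Cox8c, and 81 had at least 1 UMI in every library. Complex I members made up 29.0, 28.9, 28.6 and 28.9% of member UMIs, complex II 1.69, 1.61, 1.49 and 1.53%, complex III 9.20, 9.96, 9.95 and 10.1%, complex IV 25.6, 25.4, 26.0 and 25.7% and ATP synthase 34.5, 34.1, 33.9 and 33.8%. These shares varied little between libraries. Members lay on 19 chromosomes, 3 of them on X. Their longest annotated transcript had a median of 838 bases, against 2696 for protein-coding genes. Many subunit genes have processed copies elsewhere in the genome, and how tags were shared between a gene and a near-identical copy is uncertain.

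Across classes, the summed level of all members was high in muscle-lineage cells and low in interzone and chondrocyte cells. Myogenic progenitor-gated cells carried 32832, 33476, 36951 and 35143 CPM and myocyte-gated cells 31453, 32601, 32521 and 31799 CPM. Progenitor is here the name of a gate, whose most abundant muscle marker in every library was Myog, a gene of differentiating myoblasts. Macrophage-gated cells carried 29129.5, 31262, 37467 and 34519 CPM and endothelial-gated cells 29732, 30848, 28933 and 29267 CPM. Myogenic progenitors ranked first in every library but the library labelled E14.5G1KO, where macrophage-gated cells did, and in both libraries labelled as deleted the intervals of these classes overlapped. Among skeletal classes, tendon-gated cells carried 29996, 26025, 27550.2 and 26405 CPM and prehypertrophic-gated cells 28321, 28094, 27131 and 26140.3 CPM. Interzone-gated cells carried 26013, 23779.9, 24289.8 and 23165 CPM and chondrocyte-gated cells 26582, 23429, 23940.1 and 24461 CPM. These were the lowest classes apart from erythroid-gated cells, which carried 10950, 5859, 17887 and 14280.2 CPM in 50, 33, 13 and 10 cells. With collagen, hemoglobin, ribosomal protein and mitochondrial genes out of the denominator, erythroid-gated cells stood at 42407, 44038, 57158 and 49320, interzone-gated cells at 34601, 31937, 34505 and 33043 and chondrocyte-gated cells at 36195, 33615, 36149.9 and 36703 on the same scale. Erythroid-gated cells, lowest in every library on the first scale, were thus above both other classes on the second, where the fibroblast-gated cells of the library labelled E14.5dKO also passed below its chondrocytes, at 35049. On the second scale erythroid-gated cells also ranked first in the library labelled E14.5G1KO, where the progenitors (56549) passed above the macrophages (52924). In the E13.5 control and in the library labelled E14.5dKO the interzone was below the chondrocytes, and in the other libraries above them, with intervals that did not overlap. Under the other denominator and under TMM the interzone sum was below the chondrocyte sum in all 4 libraries. Glial-gated cells carried 29677, 26387, 27596 and 27334 CPM and are not read as glia, since they held chondrocyte transcripts. Fibroblast-gated cells carried 28566, 25059.6, 25654 and 24700.3 CPM and osteogenic-gated cells 28338, 26471, 26609 and 24688 CPM. Both lay above the interzone level of their library. For 78 members with at least 20 UMIs in each skeletal class, the median span from the lowest to the highest of the 6 classes was 0.35, 0.38, 0.39 and 0.33 on the log2 scale, against 0.63, 0.70, 0.72 and 0.76 over all genes with as many UMIs. A span over 1 was found for 2, 2, 3 and 4 members and 24.0, 28.1, 31.1 and 33.4% of all genes. The class with the lowest level of a member was interzone for 27, 15, 19 and 29 members and chondrocyte for 23, 42, 37 and 14, against 11.9, 11.1, 10.3 and 11.6% and 16.3, 12.5, 14.1 and 9.29% of all genes. The highest class was prehypertrophic for 21, 40, 28 and 29 members and tendon for 42, 13, 36 and 29, against 21.3, 22.2, 21.3 and 19.0% and 14.6, 12.2, 16.4 and 18.2% of all genes. Prehypertrophic-gated cells, asked for UMIs of 2 more markers, were deeper than chondrocyte-gated cells. In the E14.5 control they held 5935985 UMIs in 341 cells, against 33699866 in 3699, and the part of depth was not tested.

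**Figure D1:**
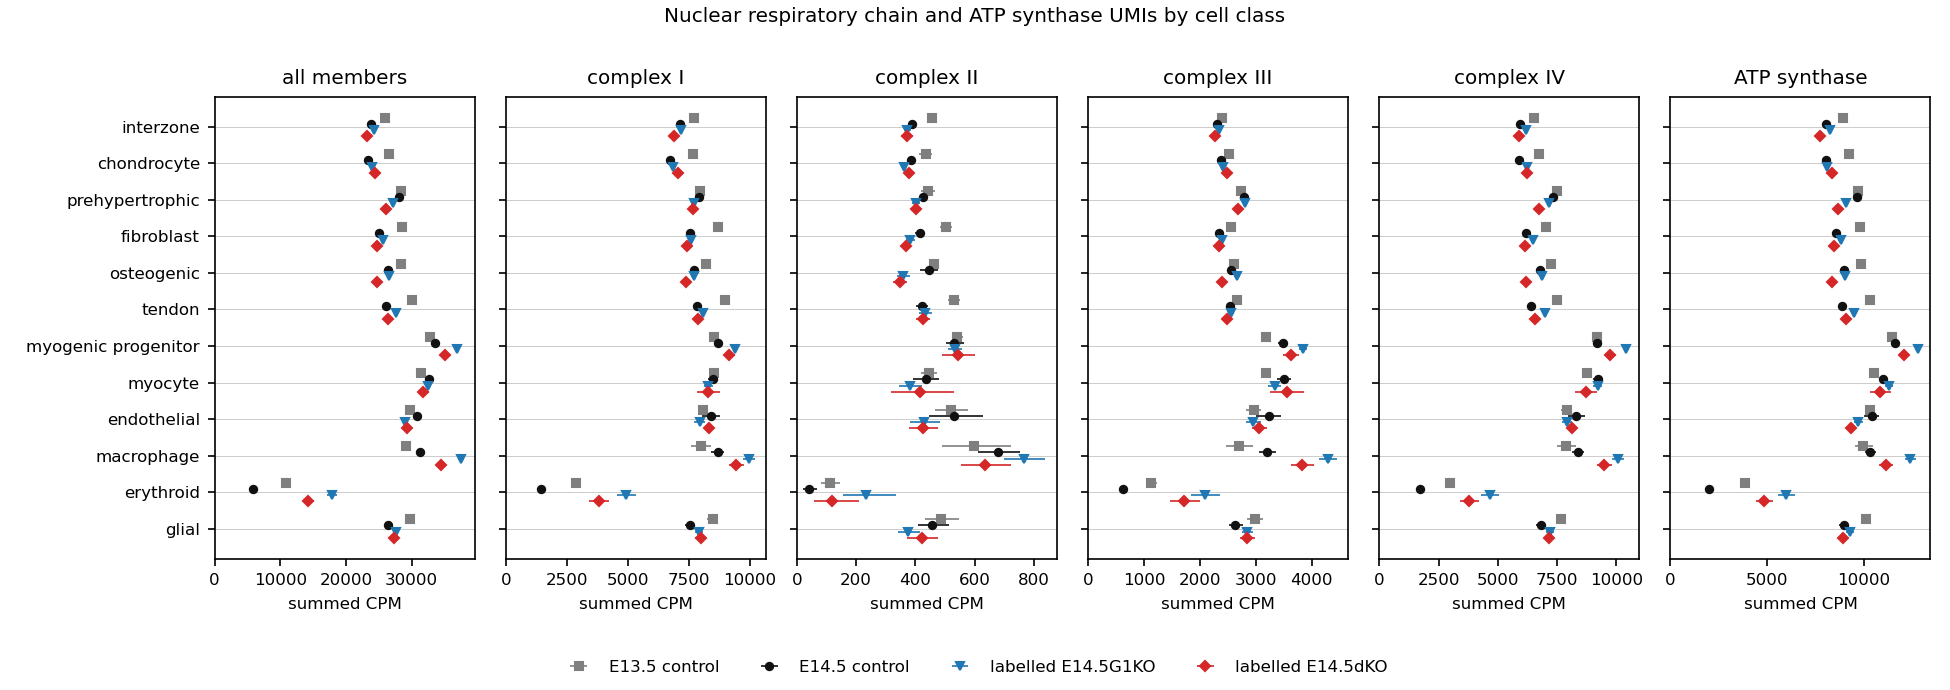
Summed level in CPM of all members and of each complex (columns) in each cell class, with 1 point per library and bars for the 95% interval of counting error. Erythroid-gated cells lie lowest in every library, at 5859 CPM in the E14.5 control. This does not hold with collagen, hemoglobin, ribosomal protein and mitochondrial genes together out of the denominator. Myogenic progenitors reach 36951 CPM in the library labelled E14.5G1KO.

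Complex I members summed to 8520.5, 8681, 9401 and 9157 CPM in myogenic progenitors, 7696, 7127, 7156 and 6879 CPM in the interzone and 7649.6, 6740, 6845 and 7033 CPM in chondrocytes. Complex II members summed to 542, 532, 532 and 543 CPM in myogenic progenitors, 456, 389, 372 and 370.4 CPM in the interzone and 434, 385, 359.95 and 378 CPM in chondrocytes. Both complexes were highest in the progenitors of these 3 classes in each library. Complex III members summed to 3178, 3481, 3846 and 3628 CPM in myogenic progenitors, 2401, 2309.7, 2351 and 2280.1 CPM in the interzone and 2529.5, 2384, 2421 and 2479 CPM in chondrocytes. For complex IV the sums were 9166, 9187, 10415 and 9743 CPM, 6543, 5929.97, 6184 and 5899 CPM and 6740.5, 5908, 6216 and 6235 CPM, and for ATP synthase 11425, 11595, 12757 and 12072 CPM, 8917, 8024, 8226 and 7736 CPM and 9228, 8013, 8098 and 8335 CPM, in the same order of classes. Interzone and chondrocyte sums lay close together in all 5 complexes, with the progenitors above both.

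The first comparison set interzone-gated against chondrocyte-gated cells within each library, to ask how energy metabolism differs between these neighbours. The summed members differed little, with log2 ratios of -0.03, 0.02, 0.02 and -0.08. The median ratio of all genes was 0.12, 0.17, 0.17 and 0.21, so relative to it the members stood at -0.15, -0.15, -0.15 and -0.28. With UMIs of collagen, hemoglobin, ribosomal protein and mitochondrial genes taken out of the denominator the ratios were -0.06, -0.07, -0.07 and -0.15, and with TMM factors (trimmed means of gene ratios) -0.13, -0.22, -0.23 and -0.39, so that the small positive values of the E14.5 control and of the library labelled E14.5G1KO turned negative under each of these scalings. Past a log2 ratio of 0.32 in either direction, 2, 8, 6 and 7 of 78 members were higher in the interzone, against 33.9, 38.0, 37.6 and 41.8% of all genes, and 3, 2, 5 and 9 were lower, against 16.3, 16.5, 16.3 and 18.0%. With the shares of all genes under the same scaling in brackets here and in later splits, scaling to the median of all genes gave 2 higher and 12 lower (26.8 and 22.9%) in the E13.5 control, 4 higher and 10 lower (27.7 and 24.8%) in the E14.5 control, 4 higher and 11 lower (26.6 and 25.2%) in the library labelled E14.5G1KO and 2 higher and 25 lower (28.8 and 27.9%) in the library labelled E14.5dKO. With TMM factors the splits were 2 higher and 10 lower (27.9 and 21.4%), 2 higher and 21 lower (24.1 and 30.0%), 2 higher and 18 lower (22.5 and 29.9%) and 1 higher and 40 lower (23.6 and 34.7%) in the same order. With the reduced denominator, the library labelled E14.5dKO had 5 higher and 14 lower (36.7 and 21.03%). With interzone cells gated on Gdf5 UMIs the sum of the library labelled E14.5dKO turned to just above 0 (0.00), and with stricter gates that of the library labelled E14.5G1KO to -0.01. Counting intervals lay above 0 in every library for 11 of 78 members, against 19.9% of all genes. Of these members 5 stayed higher in every library under each scaling (Cox6b2, Cox6c, Ndufa3, Ndufv1 and Uqcrc1), against 17.7% of all genes. Intervals lay below 0 in every library for 18 members, against 10.8% of all genes. Counting intervals narrow with more UMIs, so they can leave out 0 at small ratios. Atp5g2, with ratios from -0.13 to -0.07, is among these 18. The part of UMI depth in these interval counts was not tested. Past 0.32 in every library, 1 of 78 members was higher (Cox6b2) and 1 lower (Cox4i2), against 2243 and 898 of 11229 genes.

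In complex I, which takes electrons from NADH, the sum differed by 0.01, 0.08, 0.06 and -0.03, and by -0.11, -0.09, -0.11 and -0.24 relative to all genes, with the positive values turning negative under the other scalings. Ndufv1, the flavoprotein subunit that binds NADH, stood at 107, 98.0, 90.4 and 101 CPM in the interzone and 85.7, 73.0, 64.0 and 75.7 CPM in chondrocytes. It was higher in the interzone in each library, by 0.32, 0.42, 0.50 and 0.41 on the log2 scale. Ndufa3, a small accessory subunit, stood at 186, 172, 209 and 154 CPM against 149.6, 120.5, 157 and 107 CPM, and was likewise higher in each, by 0.31, 0.51, 0.42 and 0.53. Ndufv3, an accessory subunit beside the NADH site, stood at 163, 159, 179 and 145 CPM against 178, 171, 234 and 208 CPM, and was lower in each, with ratios of -0.13, -0.10, -0.39 and -0.52. The core iron-sulfur subunit Ndufs1 stood at 40.8, 37.6, 33.6 and 33.0 CPM against 41.7, 34.7, 35.1 and 32.7 CPM, and its ratios of -0.03, 0.11, -0.06 and 0.01 took both signs. Ndufv2, which carries an iron-sulfur cluster, had ratios of 0.06, 0.05, 0.07 and 0.00. Under TMM, these turned negative in each library. Ndufa11, an accessory subunit of the membrane arm, stood at 254, 225, 207 and 208 CPM against 204, 171, 157 and 182 CPM. Its ratios were 0.32, 0.40, 0.40 and 0.19, the last from the one library where it turned negative under other scalings. Ndufs5, an accessory subunit of the intermembrane face, had ratios of -0.29, -0.10, -0.16 and -0.29 and Ndufa5 -0.14, -0.24, -0.15 and -0.24.

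In complex II, which also belongs to the citric acid cycle, the sum differed by 0.07, 0.02, 0.05 and -0.03, and by -0.05, -0.15, -0.12 and -0.24 relative to all genes. Sdha, the flavoprotein that oxidises succinate, stood at 71.1, 56.1, 57.9 and 50.4 CPM in the interzone and 51.9, 52.3, 51.2 and 47.1 CPM in chondrocytes, with the widest gap in the E13.5 control (0.45, interval 0.24 to 0.67), and at E14.5 its ratios of 0.10, 0.18 and 0.10 turned negative under TMM. Sdhd, which anchors the complex in the membrane, stood at 108, 89.0, 71.4 and 73.2 CPM against 127, 115, 83.7 and 85.6 CPM, and was lower in each library (-0.23, -0.36, -0.23 and -0.22). Sdhc, the other anchor, moved the other way, with ratios of 0.32, 0.36, 0.21 and 0.36, of which that of the library labelled E14.5G1KO turned negative under TMM. Sdhb, the iron-sulfur subunit, stood at 215, 194, 199.99 and 203 CPM against 207, 179, 188 and 212 CPM, with ratios of 0.06, 0.12, 0.09 and -0.06, all negative relative to all genes. In complex III, which passes electrons to cytochrome c, the sum was lower in each library, with ratios of -0.08, -0.05, -0.04 and -0.12. Uqcrc1, a large core subunit, stood at 119.8, 126, 129 and 126 CPM in the interzone and 97.2, 82.5, 84.1 and 84.6 CPM in chondrocytes, and was higher in each, with ratios of 0.30, 0.61, 0.62 and 0.58. The other large core subunit, Uqcrc2, had ratios of -0.07, 0.23, 0.20 and 0.24, and the Rieske iron-sulfur protein Uqcrfs1 0.17, -0.12, -0.07 and 0.03, so that neither had the same sign in all libraries, and the positive values of Uqcrc2 turned under TMM. The small subunits Uqcr11 and Uqcrq were lower, Uqcr11 at 256, 281, 309.9 and 249 CPM against 322, 329, 392 and 342 CPM (ratios -0.33, -0.23, -0.34 and -0.46) and Uqcrq at 279.6, 252, 256 and 233 CPM against 311, 265, 297 and 348 CPM (ratios -0.15, -0.07, -0.22 and -0.58). The lowest ratio of Uqcrq was in the library labelled E14.5dKO.

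In complex IV, which reduces oxygen, the sum differed by -0.04, 0.01, -0.01 and -0.08. Cox4i2, the isoform known from low oxygen, stood at 22.3, 15.4, 23.7 and 20.6 CPM in the interzone and 96.4, 55.8, 101 and 88.6 CPM in chondrocytes. It was lower in the interzone in each library, with log2 ratios of -2.11, -1.86, -2.10 and -2.11. Cox6b2, known as the testis isoform of a subunit that faces the intermembrane space, stood at 62.1, 64.5, 60.9 and 49.6 CPM against 43.2, 41.3, 34.3 and 27.8 CPM. It was higher in each, with ratios of 0.52, 0.65, 0.83 and 0.83. Their general partners Cox4i1, at 592, 542, 535 and 589.9 CPM against 578, 522, 508 and 550.3 CPM, and Cox6b1, at 492, 467, 461 and 436 CPM against 487, 454, 438 and 440.3 CPM, lay close to each other in both classes. Cox6c, a small membrane subunit, stood at 831, 766, 786 and 711 CPM against 670.03, 527, 542 and 525 CPM and was higher in each (0.31, 0.54, 0.53 and 0.44). Cox6a1, the general form of a regulatory subunit, stood at 178, 169, 177 and 157 CPM against 216, 196, 223 and 225 CPM and was lower in each (-0.28, -0.21, -0.34 and -0.52). Cox7a2 had ratios of -0.25, -0.32, -0.25 and -0.32 and Cox8a -0.16, -0.21, -0.27 and -0.35, lower in each library. Cox7a2l, which takes part in joining complexes III and IV, had ratios of 0.11, 0.16, 0.15 and 0.18, which turned negative in each library relative to all genes. Cox5a had ratios of -0.09, 0.13, 0.07 and -0.18, with the positive ones turning, and Cox5b -0.07, -0.05, -0.00 and -0.20. Of the isoforms with few UMIs, Cox7b2, Cox8b and Cox8c stayed under 1 CPM in both classes in each library, as did Cox7a1. In ATP synthase, the sum differed by -0.05, 0.00, 0.02 and -0.11, and by -0.17, -0.17, -0.15 and -0.31 relative to all genes, with the positive values turning negative. The genes Atp5g1, Atp5g2 and Atp5g3 encode the same ring subunit with different import sequences. Atp5g1 stood at 452, 442, 436 and 432 CPM in the interzone and 596, 548, 573 and 718 CPM in chondrocytes, and was lower in each library, with ratios of -0.40, -0.31, -0.39 and -0.73. Atp5g2 had ratios of -0.07, -0.13, -0.07 and -0.07 and Atp5g3 -0.06, -0.02, -0.01 and -0.06, negative in each library and smaller in size. The alpha and beta subunits of the catalytic head moved apart, Atp5a1 (alpha) with ratios of 0.18, 0.17, 0.15 and 0.19 and Atp5b (beta) with -0.24, -0.12, -0.07 and -0.17. The positive ratios of Atp5a1 turned negative in the 3 libraries of E14.5 relative to all genes and under TMM.

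**Figure D2:**
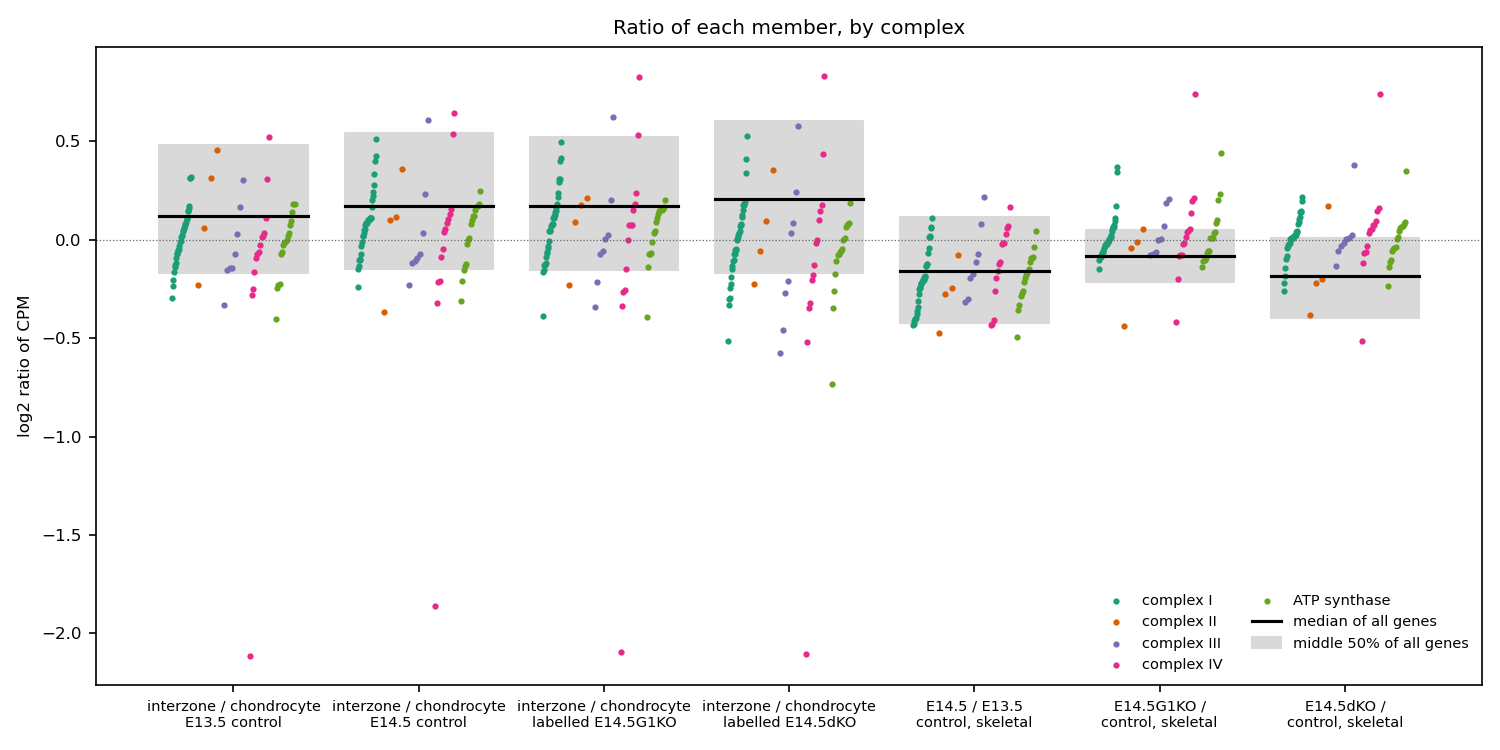
Log2 ratio of CPM for each member with at least 50 UMIs apart from Cox6a2, which is not drawn (points, coloured by complex). Drawn are the interzone comparisons and the skeletal comparisons by age and by label, with the median of all genes (line) and their middle 50% (grey). Cox4i2 is the lowest point of each interzone comparison, at -2.11, -1.86, -2.10 and -2.11, and most members of those comparisons lie below the median of all genes, while sums of members above 0 there turned negative under the other scalings.

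Isoform use was also read as a share of UMIs within a pair, which no scaling can move. As tags were not divided by length, a share compares classes and libraries, not the genes of a pair. Cox4i2 made up 3.63, 2.76, 4.24 and 3.37% of Cox4i UMIs in the interzone, 14.3, 9.66, 16.6 and 13.9% in chondrocytes and 19.2, 14.9, 22.7 and 18.7% in prehypertrophic-gated cells. The share thus rose from interzone to chondrocyte to prehypertrophic cells in each library. In osteogenic-gated cells it was 8.72, 2.82, 7.32 and 7.21%, in tendon-gated cells 2.45, 4.29, 3.95 and 2.78% and in fibroblast-gated cells 1.77, 2.65, 1.93 and 2.58%. Myogenic progenitors had 1.22, 0.876, 1.02 and 2.36%. Cox6b2 had the opposite order, with 11.2, 12.2, 11.7 and 10.2% of Cox6b UMIs in the interzone, 8.14, 8.33, 7.26 and 5.95% in chondrocytes and 4.76, 4.05, 3.95 and 3.13% in prehypertrophic-gated cells. In myogenic progenitors it was 2.47, 2.68, 2.25 and 1.28%, and in macrophage-gated cells 3.45, 1.45, 2.35 and 1.32%. Atp5g1 made up 27.0, 29.0, 27.9 and 27.4% of Atp5g UMIs in the interzone, 31.8, 32.1, 32.8 and 37.4% in chondrocytes and 33.9, 34.7, 37.9 and 43.0% in prehypertrophic-gated cells. The last was the highest of these in each library. Ndufa4l2, a relative of Ndufa4 known from low oxygen and not a member, stood at 19.6, 97.2, 131 and 88.5 CPM in skeletal cells, 34.4, 126, 88.7 and 42.0 CPM in the interzone and 23.0, 106, 183 and 106 CPM in chondrocytes. It was lower in the interzone than in chondrocytes in both libraries labelled as deleted and higher in both controls, where Cox4i2 was lower too.

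**Figure D3:**
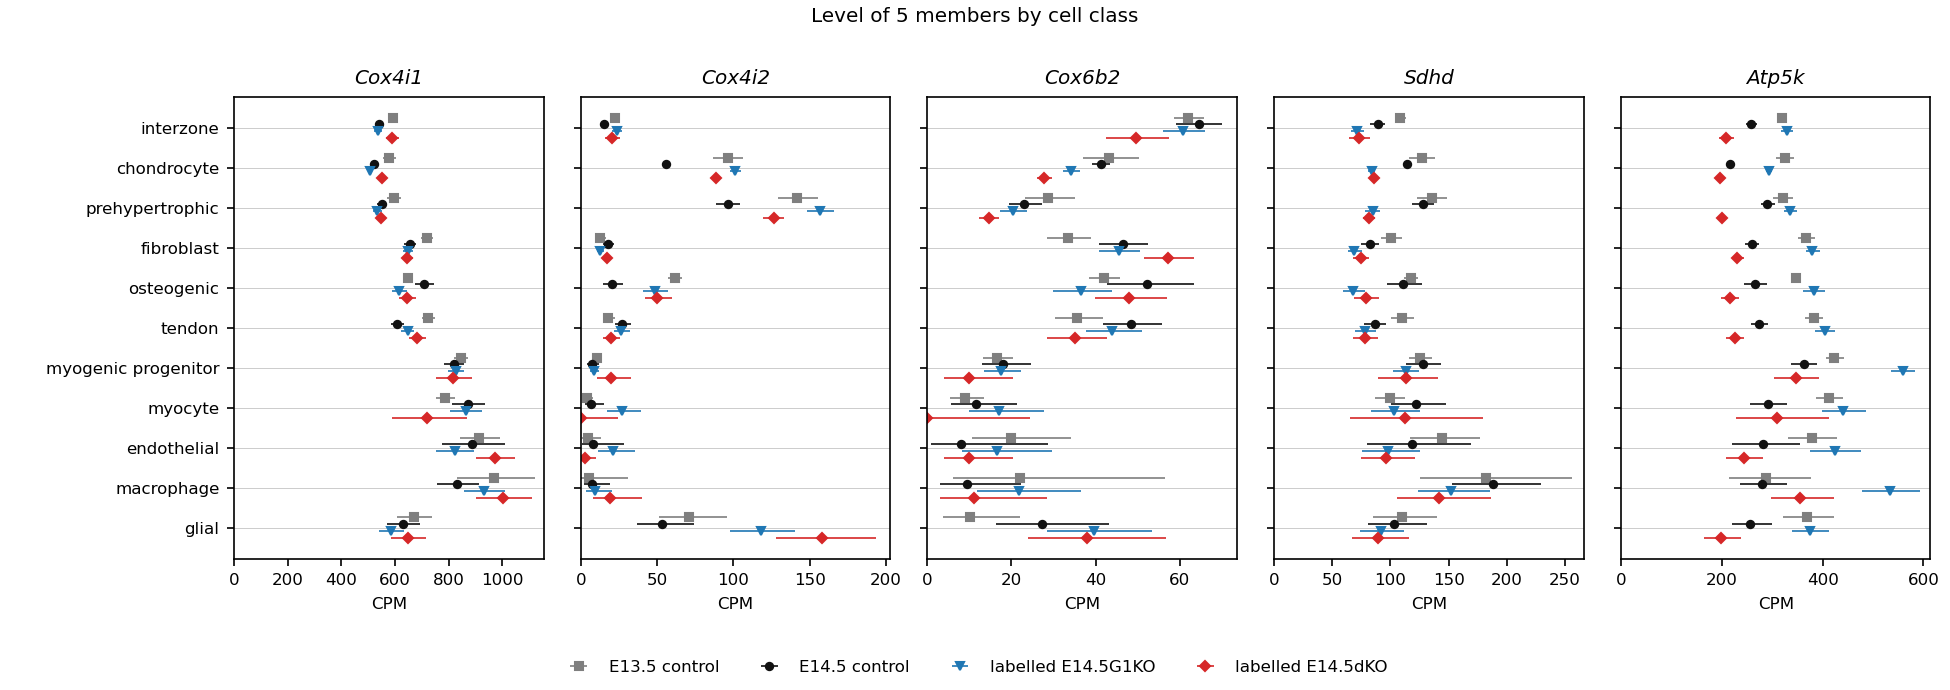
Level in CPM of Cox4i1, Cox4i2, Cox6b2, Sdhd and Atp5k in each cell class, with 1 point per library and bars for the 95% interval of counting error. Cox4i2 is lower in the interzone than in chondrocytes in each library. Sdhd is lower in both libraries labelled as deleted than in the E14.5 control, in skeletal and non-skeletal classes alike. Over skeletal cells it stands at 79.2 and 82.4 against 107 CPM.

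Other genes of the same pathway were read as whole lists between interzone and chondrocytes. The 13 protein genes of the mitochondrial genome differed by 0.09, 0.33, 0.37 and 0.44, higher in the interzone except in the E13.5 control under scaling to all genes and TMM. Citric acid cycle genes differed by 0.12, 0.24, 0.24 and 0.15, against 0.03, -0.01, -0.01 and -0.16 with TMM. Carriers and exchange proteins, such as cytochrome c and the ADP/ATP carrier, differed by -0.08, -0.06, -0.04 and -0.13. Assembly factors differed by -0.05, 0.04, 0.02 and 0.02, with the positive values turning negative under each other scaling, and mitochondrial ribosomal proteins by -0.06, -0.02, -0.00 and -0.06. Regulators, such as Tfam and Ppargc1a, differed by -0.04, -0.16, -0.14 and 0.08, with the positive value of the library labelled E14.5dKO turning negative relative to all genes. The genes linked to hypoxia, a list that holds Cox4i2 itself, differed by -0.30, -0.46, -0.93 and -1.0 and glycolysis genes by -0.20, -0.27, -0.52 and -0.78. Lower by more than 0.32 were 7, 8, 12 and 14 of the 16 glycolysis genes and 3, 4, 6 and 5 of the 9 genes linked to hypoxia, against 16.3, 16.5, 16.3 and 18.0% of all genes. Higher by more than it were 2, 0, 1 and 1 glycolysis genes and 4, 0, 0 and 0 genes linked to hypoxia, against 33.9, 38.0, 37.6 and 41.8%. The study reports glycolysis and hypoxia gene sets as enriched, and oxidative phosphorylation as reduced, in its interzone cluster against all other clusters. It also reports more glucose use and lactate production by joint cells than by chondrocytes. The sums of glycolysis and hypoxia-linked genes given here have the opposite direction. Gene lists, gates and contrast differ from those of the study, and the part of these differences was not tested.

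The second comparison set the E14.5 control against the E13.5 control, which asks how the members change with age, although sex differs as well. In skeletal cells the summed members stood at 27451 CPM at E13.5 and 24364 CPM at E14.5, a log2 ratio of -0.17 (-0.18 to -0.17). All genes had a median of -0.16, so that relative to it the members stood at -0.02. Past 0.32, 0 of 79 members were higher and 16 lower, against 14.7% and 33.0% of all genes. Scaled to the median of all genes the split was 2 higher and 1 lower (21.9 and 21.3%), and with TMM factors 2 higher and 1 lower (22.0 and 21.2%). By complex the ratios were complex I -0.18, complex II -0.23, complex III -0.06, complex IV -0.18 and ATP synthase -0.19, and relative to all genes complex I -0.03, complex II -0.08, complex III 0.10, complex IV -0.02 and ATP synthase -0.03, where complex III turned positive, as it did under each other scaling. In interzone-gated cells the member sum had a ratio of -0.13, in chondrocytes -0.18, in tendon -0.20 and in prehypertrophic-gated cells -0.01. Relative to all genes the prehypertrophic sum turned to 0.09, and the osteogenic sum from -0.10 to 0.09. Myogenic progenitors had 0.03 and myocytes 0.05.

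In skeletal cells Atp5k, a small subunit of the membrane part of ATP synthase, stood at 338 CPM at E13.5 and 239.6 CPM at E14.5, a ratio of -0.50 (-0.53 to -0.46). It was lower in 12 of 12 classes, with a median ratio of -0.45. Classes of a comparison come from the same pair of libraries. Counts of classes, here and below, are therefore not replicates, and they are not read against all genes. Sdhc stood at 61.6 CPM at E13.5 and 44.3 CPM at E14.5 (-0.47, interval -0.55 to -0.40) and Ndufb8, a membrane-arm subunit of complex I, at 367 CPM at E13.5 and 272 CPM at E14.5 (-0.43, interval -0.46 to -0.40). In complex IV, Ndufa4 stood at 817 CPM at E13.5 and 605 CPM at E14.5 (-0.43, interval -0.45 to -0.41) and Cox5a at 410.4 CPM at E13.5 and 305 CPM at E14.5 (-0.43, interval -0.46 to -0.40). All of these were lower at the later age, and stayed lower under every scaling. Uqcr11 stood at 291 CPM at E13.5 and 338 CPM at E14.5 (0.22, interval 0.18 to 0.25), and Cox7a2l at 149 CPM at E13.5 and 167 CPM at E14.5 (0.17, interval 0.12 to 0.21). The complex I subunit Ndufs5 had a ratio of 0.11, Uqcrh, the hinge protein of complex III, 0.08 and Cox4i2 0.07. These 5 were the highest ratios, none past 0.32. Cox4i2 differed between classes, at -0.53 in the interzone, -0.79 in chondrocytes, -0.56 in prehypertrophic-gated cells and -1.58 in osteogenic-gated cells, while it was 0.58 (0.15 to 1.02) in tendon-gated and 0.47 (-0.01 to 0.95) in fibroblast-gated cells. It was lower in 6 of 8 classes and higher in 2, and the skeletal sum was almost level. Chondrocyte-gated cells, where Cox4i2 is high, were 4.14% of the kept cells of the E13.5 control and 39.8% of those of the E14.5 control, and the part of this change was not tested. Of the core subunits, Ndufv1 had a ratio of -0.41, Sdha -0.28, Uqcrc1 -0.31, Atp5a1 -0.36 and Atp5b -0.09. Atp5b was the one of these that turned, to 0.06 relative to all genes. Ndufc2, a complex I subunit, was lower in 11 of 11 classes and Atp5md, a subunit at the dimer interface of ATP synthase, in 12 of 12, both chosen after their values were seen. In erythroid-gated cells 50 of 50 members were lower, against 88.2% of all genes, where all genes had a median of -1.07 and the member sum turned positive relative to it (0.16). Over the other lists, the ratios with age were mitochondrial genome -0.21, electron carriers and exchange -0.09, assembly factors -0.23, TCA cycle -0.20, regulators -0.03, hypoxia-linked 0.54, glycolysis 0.01 and mitochondrial ribosome -0.19. Relative to all genes, carriers (0.07) and regulators (0.13) turned positive.

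The next comparisons set each library labelled as deleted against the E14.5 control, and both share this control. They ask how the members differ with the label of deletion, which the 3' tags of Slc2a1 go against, while sex differs as well. In skeletal cells the summed members stood at 24364 CPM in the control and 24941 CPM in the library labelled E14.5G1KO, a ratio of 0.03 (0.03 to 0.04), or 0.12 relative to the median of all genes. Past 0.32, 4 of 79 members were higher and 2 lower, against 7.33% and 13.1% of all genes. By complex the ratios were complex I 0.02, complex II -0.08, complex III 0.03, complex IV 0.07 and ATP synthase 0.02, and complex II turned to just above 0 (0.00) relative to all genes. Cox4i2 stood at 47.6 CPM in the control and 79.5 CPM in the library labelled E14.5G1KO, a ratio of 0.74 (0.67 to 0.81). It was higher in the interzone (0.62), chondrocytes (0.86), prehypertrophic-gated cells (0.70) and osteogenic-gated cells (1.24) and lower in fibroblast-gated cells (-0.49). The 4 prehypertrophic markers summed to 401, 248, 652 and 323 CPM in osteogenic-gated cells and 1003, 401, 497 and 522 CPM in prehypertrophic-gated cells, and the 8 chondrocyte markers to 4797, 7263, 8739.9 and 5982 CPM in osteogenic-gated cells. The part of this in the osteogenic ratio was not tested. Over the alternatives the skeletal Cox4i2 value ran from 0.46 to 0.82, and the interzone value turned to -0.08 under a stricter gate. Atp5k stood at 239.6 CPM in the control and 325 CPM in the library labelled E14.5G1KO (0.44, interval 0.41 to 0.47) and was higher in 12 of 12 classes. Muscle-lineage, endothelial, macrophage and erythroid-gated cells, in general not targets of Prx1Cre, are among these classes. Ndufa3 stood at 141 CPM in the control and 182 CPM in the library labelled E14.5G1KO (0.37, interval 0.33 to 0.41) and Ndufv3 at 169 CPM in the control and 215 CPM in the library labelled E14.5G1KO (0.34, interval 0.31 to 0.38). Both were higher in 11 of 11 classes. Atp5md had a ratio of 0.23, and Uqcr11, Atp5mpl, Cox7c and Atp5md were each higher in 12 of 12 classes. As all classes come from the same pair of libraries, these counts are not replicates. In the library labelled E14.5G1KO, 33 of 33 members were higher in erythroid-gated cells, against 83.1% of all genes, and 74 of 76 in macrophage-gated cells, against 46.4%. Relative to all genes the erythroid sum stood at 0.02 and the macrophage sum at 0.29. The members named were chosen after their values were seen. Sdhd was the largest fall, at 107 CPM in the control and 79.2 CPM in the library labelled E14.5G1KO (-0.44, interval -0.49 to -0.38). It was lower in 11 of 11 classes, with ratios from -0.70 to -0.15, and the interval lay below 0 in 5 of them. Non-skeletal classes are among these 11. Cox7a1, with few UMIs, had -0.42 (-1.24 to 0.39). Cox6b2 stood at 44.1 CPM in the control and 38.4 CPM in the library labelled E14.5G1KO (-0.20, interval -0.28 to -0.12). Among members with at least 100 UMIs, the next lowest ratios were those of Ndufb6 (-0.15), a membrane-arm subunit of complex I, and of Atp5j (-0.14) and Atp5d (-0.11), of the stalks of ATP synthase, none past 0.32.

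Spearman's rank correlation of the skeletal ratio with transcript length was -0.210 over 78 members and 0.0118 over 11435 genes, which are not independent replicates. For the library labelled E14.5dKO the values were 0.122 and -0.177. The part of length in the ratios was not tested. Over the other lists, the skeletal ratios of the library labelled E14.5G1KO were mitochondrial genome 0.18, electron carriers and exchange -0.05, assembly factors -0.02, TCA cycle -0.07, regulators -0.18, hypoxia-linked 0.32, glycolysis 0.11 and mitochondrial ribosome -0.05. Carriers, assembly factors, the TCA cycle and the mitochondrial ribosome turned positive relative to all genes, at 0.03, 0.06, 0.01 and 0.03.

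In the library labelled E14.5dKO, the summed members of skeletal cells stood at 24795 CPM, a ratio of 0.03 (0.02 to 0.03) against the control. All genes had a median of -0.18, so the members stood at 0.21 relative to it. Past 0.32, 4 of 79 members were higher and 2 lower, against 6.86% and 32.3% of all genes. Scaled to the median of all genes the split was 12 higher and 1 lower (14.2 and 16.9%), and with TMM factors 10 higher and 1 lower (14.0 and 17.1%). By complex the ratios were complex I 0.03, complex II -0.05, complex III 0.04, complex IV 0.04 and ATP synthase 0.02, and relative to all genes complex I 0.21, complex II 0.13, complex III 0.22, complex IV 0.22 and ATP synthase 0.20, where complex II turned positive, as it did under each other scaling. Cox4i2 stood at 47.6 CPM in the control and 79.5 CPM in the library labelled E14.5dKO, a ratio of 0.74 (0.67 to 0.81). It was higher in chondrocytes (0.67), osteogenic-gated cells (1.28) and prehypertrophic-gated cells (0.39). In the interzone (0.42) and in tendon (-0.48) its interval held 0. Prehypertrophic-gated cells, where Cox4i2 is highest among skeletal classes, were 3.66% of the kept cells of the control and 6.08% of those of the library labelled E14.5dKO, and interzone-gated cells 14.2% and 5.57%. The part of these shares in the skeletal value, which ran from 0.30 to 0.92 over the alternatives, was not tested. The prehypertrophic value turned to -0.34 under the stricter gate and to -0.17 without the deepest cells, and the interzone value to -0.06 as a mean over cells. Uqcrq, a small subunit of complex III, stood at 278 CPM in the control and 362 CPM in the library labelled E14.5dKO (0.38, interval 0.35 to 0.41). Atp5g1 stood at 555 CPM in the control and 708 CPM in the library labelled E14.5dKO (0.35, interval 0.33 to 0.37), and Ndufv3 at 169 CPM in the control and 197 CPM in the library labelled E14.5dKO (0.22, interval 0.18 to 0.26). Cox6b2 stood at 44.1 CPM in the control and 30.9 CPM in the library labelled E14.5dKO (-0.51, interval -0.60 to -0.43), lower in chondrocytes (-0.57), the interzone (-0.38) and prehypertrophic-gated cells (-0.66) and higher in fibroblast-gated cells (0.30). Sdhd stood at 107 CPM in the control and 82.4 CPM in the library labelled E14.5dKO (-0.38, interval -0.43 to -0.33), lower in 11 of 11 classes, with the interval below 0 in 4 of them. Non-skeletal classes are again among these 11. Ndufa3 had a ratio of -0.26 (-0.30 to -0.21), Atp5k -0.23 (-0.27 to -0.20) and Sdhc -0.22 (-0.30 to -0.14). Relative to all genes these shrank to -0.08, -0.05 and -0.04. Ndufa3 and Atp5k had values in skeletal cells of 186, 141, 182 and 118 CPM and 338, 239.6, 325 and 204 CPM over the 4 libraries. Over the other lists, the ratios of the library labelled E14.5dKO were mitochondrial genome -0.08, electron carriers and exchange 0.07, assembly factors -0.05, TCA cycle -0.04, regulators -0.15, hypoxia-linked 0.31, glycolysis 0.23 and mitochondrial ribosome 0.00. The mitochondrial genome (0.10), assembly factors (0.13), the TCA cycle (0.14) and regulators (0.03) turned positive relative to all genes. The median over the mitochondrial genes was -0.35, further from 0 than their sum.

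Cox6a2, the striated muscle form of a complex IV subunit, reached the minimum of 50 UMIs in skeletal cells only through the library labelled E14.5dKO, so that it had to differ there and no fold is given. It is among the members counted as higher under each scaling, and without it each of those counts is 1 less. Over skeletal cells it stood at 0.149, 0.0337, 0.406 and 2.21 CPM, from 2 UMIs in the control and 140 in the library labelled E14.5dKO. Prehypertrophic-gated cells of the library labelled E14.5dKO held 94 UMIs in 55 of 687 cells, with at most 8 in any cell, and those of the E14.5 control 0 UMIs in 0 of 341. In the library labelled E14.5G1KO the count was 13 UMIs in 9 of 465, and at E13.5 1 UMI in 283 cells. Chondrocyte-gated cells held 40 UMIs in 32 of 4132 cells in the library labelled E14.5dKO and 1 UMI in the control. Tendon-gated cells of the library labelled E14.5dKO held 0 UMIs in 0 of 427 cells and fibroblast-gated cells 1 UMI in 1014. Median depth was 14557 UMIs in the prehypertrophic class of the library labelled E14.5dKO, 16700 in that of the control, 5606 in tendon and 5290 in fibroblasts of the library labelled E14.5dKO. The 8 myocyte markers summed to 31.7, 10.3, 10.1 and 4.85 CPM in prehypertrophic-gated cells and 19890.5, 8938, 13304 and 9736 CPM in myocyte-gated cells. Mylpf was the most abundant of them in the prehypertrophic class of the library labelled E14.5dKO, where 3 of the 8 were at 0. The part of muscle transcripts in these counts was not tested.

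Members on the X chromosome were Ndufa1 and Ndufb11, both accessory subunits of complex I, and Cox7b of complex IV. In skeletal cells Ndufa1 stood at 191, 167, 168 and 144 CPM, Ndufb11 at 271, 275, 267 and 303 CPM and Cox7b at 308, 304, 287 and 298 CPM. Ndufa1 was lowest and Ndufb11 highest in the library labelled E14.5dKO. Its ratios against the E14.5 control were -0.22 for Ndufa1, 0.14 for Ndufb11 and -0.03 for Cox7b, and in the library labelled E14.5G1KO 0.01, -0.04 and -0.08. Relative to all genes, Ndufa1 and Cox7b in the library labelled E14.5dKO stood at -0.03 and 0.15. Ndufb11 and Cox7b in the library labelled E14.5G1KO turned positive relative to all genes. Sex and genotype cannot be told apart for these genes.

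The last comparison set myocyte-gated against myogenic progenitor-gated cells, since muscle has isoforms of its own. It rests on 186, 61, 73 and 15 myocytes, and the library labelled E14.5dKO has the fewest. The 8 myocyte markers summed to 1131, 1136, 824 and 840 CPM in the progenitor gate, which thus also holds differentiating cells. The member sums had ratios of -0.06, -0.04, -0.18 and -0.14, and of 0.15, 0.07, 0.02 and -0.04 relative to all genes, where all but the library labelled E14.5dKO turned positive. Past 0.32, 5, 2, 5 and 2 members were higher and 9, 5, 25 and 14 lower of 79, 77, 79 and 73, against 16.9, 16.9, 17.9 and 19.7% and 40.9, 32.7, 41.1 and 33.4% of all genes. Scaled to all genes, the splits were 17 higher and 2 lower (26.4 and 26.1%) in the E13.5 control, 7 higher and 2 lower (22.7 and 25.8%) in the E14.5 control, 7 higher and 6 lower (27.9 and 28.8%) in the library labelled E14.5G1KO and 7 higher and 8 lower (25.04 and 27.1%) in the library labelled E14.5dKO. With TMM factors they were 8 higher and 2 lower (23.0 and 30.0%) in the E13.5 control, 6 higher and 2 lower (21.7 and 26.8%) in the E14.5 control, 5 higher and 13 lower (21.7 and 35.4%) in the library labelled E14.5G1KO and 1 higher and 22 lower (14.8 and 40.7%) in the library labelled E14.5dKO. Cox6a2 stood at 129, 21.9, 58.9 and 33.0 CPM in myocytes and at 0 in the progenitors of all 4 libraries. These rest on 307, 19, 55 and 5 UMIs in 42, 3, 10 and 1 myocytes. In the E13.5 control and in the library labelled E14.5G1KO it entered this comparison through myocytes alone, and without it each count of higher members there is 1 less. Its share of Cox6a UMIs in myocytes was 45.7, 12.0, 24.9 and 11.6%, highest in the E13.5 control. Cox8b, the muscle form of another small subunit, stood at 11.8, 6.92, 13.9 and 0 CPM in myocytes and 0.191, 0, 0 and 0 CPM in progenitors, and Cox7a1 at 1.68, 0, 3.21 and 0 CPM and 0.381, 0, 0.829 and 0 CPM. Ndufv3 stood at 255, 246, 278 and 264 CPM in myocytes and 160.3, 185, 191 and 212 CPM in progenitors, and was higher in each library (0.67, 0.41, 0.54 and 0.32). Complex II sums were lower in each library, with ratios of -0.28, -0.29, -0.48 and -0.39, and stayed lower under every scaling. Sdhb had ratios of -0.28, -0.45, -0.66 and -0.35 and Atp5g1 -0.33, -0.37, -0.73 and -0.46. Cox7a2l had 0.53, 0.22, 0.57 and -0.01. Cox6b2 had -0.91 (-1.67 to -0.21) in the E13.5 control, -0.65 (-1.81 to 0.38) in the E14.5 control and -0.02 (-0.91 to 0.79) in the library labelled E14.5G1KO, with 0 UMIs in the myocytes of the library labelled E14.5dKO. Over the other lists, myocytes differed from progenitors by 0.35, 0.08, 0.24 and 0.07 for glycolysis and -0.05, 0.12, 0.10 and 0.09 for the mitochondrial genome. For hypoxia-linked genes the ratios were 0.13, -0.20, 0.56 and -0.28 and for regulators -0.57, -0.15, -0.43 and 0.20. The remaining lists gave 0.01, 0.05, -0.10 and 0.08 for the TCA cycle, -0.08, -0.08, -0.23 and -0.35 for carriers, 0.03, 0.01, -0.17 and -0.20 for assembly factors and -0.11, -0.06, -0.22 and -0.14 for the mitochondrial ribosome. All genes had medians of -0.21, -0.11, -0.20 and -0.10. Relative to these, the mitochondrial genome turned positive in the E13.5 control, and carriers and the mitochondrial ribosome in both controls. The TCA cycle and assembly factors turned positive in the library labelled E14.5G1KO. Glycolysis was higher in myocytes in each library, except in the library labelled E14.5dKO under TMM.

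Promoter sequences of 300 bases came from RefSeq for the mouse build GRCm38.p6, and 67 of the 83 members matched by symbol. Among those without an entry were Ndufs1, Sdhc, Cox4i2, Atp5f1, Uqcrc2, Cox6a2, Cox4i1, Uqcrq, Cox8c, Atp5mpl, Uqcrb, Cox6c, Ndufb9, Ndufa2 and Atp5a1. Motifs of factors known to act on these genes were searched on both strands, the first being GCGCATGCG for NRF1, the others CCGGAAG for ETS factors, AAGATGGCG for YY1 and ACGTG for HIF. The NRF1 letters were in 8 member promoters (11.9%), against 1.95% of the 27025 genes in the table, namely Ndufa8, Atp5k, Cox6a1, Atp5l, Uqcrc1, Uqcr11, Atp5g2 and Ndufa11. The ETS letters were in 17 member promoters (25.4%), against 9.93% of the 27025 genes in the table. The YY1 letters were in 7 member promoters (10.4%), against 1.64% of the 27025 genes in the table, and the HIF letters in 16 member promoters (23.9%), against 21.8% of the 27025 genes in the table. Median GC content was 57.3% over members and 52.8% over all genes, and its part in these shares was not tested. The NRF1 stretch printed for Atp5k holds a match on each strand, and these overlap. No letters of a motif overlap those of a different motif in the promoters printed. A match describes letters in this window, and no match says nothing of a factor. Shown are Atp5k, which was lower with age and higher in the library labelled E14.5G1KO in all 12 classes, Sdhd, which was lower in both libraries labelled as deleted, and the pair Cox6b1 and Cox6b2, whose shares differed between interzone and chondrocytes, with matches in capitals. Those in Atp5k are NRF1 and then ETS, and those in Sdhd and Cox6b1 are ETS, while Cox6b2 has none of the 4. All are on the minus strand, at chr5:108434350-108434649 (Atp5k), chr9:50603800-50604099 (Sdhd), chr7:30626065-30626364 (Cox6b1) and chr7:4753045-4753344 (Cox6b2).
Atp5k: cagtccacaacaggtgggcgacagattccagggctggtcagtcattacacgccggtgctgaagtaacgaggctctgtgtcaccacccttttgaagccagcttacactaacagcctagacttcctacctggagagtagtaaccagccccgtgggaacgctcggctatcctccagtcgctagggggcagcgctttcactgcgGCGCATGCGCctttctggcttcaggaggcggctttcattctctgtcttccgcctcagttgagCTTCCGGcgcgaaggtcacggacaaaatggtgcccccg
Sdhd: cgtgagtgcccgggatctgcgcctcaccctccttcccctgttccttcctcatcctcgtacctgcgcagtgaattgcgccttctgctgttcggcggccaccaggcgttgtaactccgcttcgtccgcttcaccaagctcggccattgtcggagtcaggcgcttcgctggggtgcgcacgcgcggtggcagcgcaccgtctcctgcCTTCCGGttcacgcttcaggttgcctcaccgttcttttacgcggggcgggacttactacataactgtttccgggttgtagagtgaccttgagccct
Cox6b1: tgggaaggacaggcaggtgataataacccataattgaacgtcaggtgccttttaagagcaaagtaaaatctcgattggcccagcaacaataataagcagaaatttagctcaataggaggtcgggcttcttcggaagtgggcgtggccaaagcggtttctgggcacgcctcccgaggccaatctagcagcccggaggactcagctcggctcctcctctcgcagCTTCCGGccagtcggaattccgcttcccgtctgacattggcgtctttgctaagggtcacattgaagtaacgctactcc
Cox6b2: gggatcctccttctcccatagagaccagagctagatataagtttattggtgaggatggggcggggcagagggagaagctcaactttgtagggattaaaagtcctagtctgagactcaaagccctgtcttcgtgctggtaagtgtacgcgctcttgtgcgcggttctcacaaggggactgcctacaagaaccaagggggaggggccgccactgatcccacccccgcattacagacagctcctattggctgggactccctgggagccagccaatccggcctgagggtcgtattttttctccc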

How the data were processed

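Per the file headers and the labels, the authors counted UMIs per gene and cell from 10x 3' libraries with Cell Ranger 6.1.2 against the mouse build mm10, and deposited count tables of called cells without further filters, while their processing notes also name Seurat 3, whose output was not used here. Members and lists were chosen with earlier results of these data known. From the counts, cells of 200 to 6000 genes and at most 10% mitochondrial UMIs were kept. Cell scores were means of z scores of ln(1 + UMIs per 10000) over marker lists (interzone, chondrocyte, fibroblast, osteogenic, tendon), with a score of at least 0.5 and a lead of 0.25 asked of a class. Endothelial, macrophage, erythroid and glial classes and myogenic progenitors (muscle markers) needed UMIs of 3 markers, myocytes of 5 of 8, and prehypertrophic cells were chondrocytes with UMIs of 2 markers. For each class, UMIs of its cells were added up by gene and divided by the total. Ratios carry exact conditional 95% intervals and levels exact Poisson ones, and isoform shares were read with Clopper-Pearson intervals. Genes with at least 50 UMIs over both groups entered a comparison. Named, apart from results not used here, were tissue isoforms, core subunits and X-linked members, and for each comparison the 5 largest rises and falls among members with at least 100 UMIs. Lists beside the members were the mitochondrial genome, electron carriers and exchange, assembly factors, the TCA cycle, regulators, genes linked to hypoxia, glycolysis and the mitochondrial ribosome. Epidermal-gated cells numbered 9, 7, 7 and 4 and were not used. Alternatives were another denominator, scaling to the median of all genes, TMM, stricter cells or gates, a Gdf5 gate, means over cells and other UMI minimums. Transcript lengths came from GENCODE M21. The ratio and interval steps were tested on simulated data. Tools were Python 3.11.15, numpy 2.4.6, scipy 1.17.1, pandas 2.3.3, matplotlib 3.10.9, scanpy 1.11.5 for Scrublet, and R 4.3.3 with edgeR 4.0.16 and limma 3.58.1 for TMM.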

Additional observations from a re-analysis of the deposited data

Results flagged for a closer look

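The results given here took opposite directions in cell classes of at least 50 cells in each library compared, with counting intervals on either side of 0. None of the differences between classes was tested. With age, the member sum had a log2 ratio of 0.052 (0.032 to 0.071) in myocytes and -0.20 (-0.22 to -0.19) in tendon-gated cells. Cox4i2 with age was 0.58 (0.15 to 1.02) in tendon-gated and -1.58 (-2.08 to -1.13) in osteogenic-gated cells. In the library labelled E14.5G1KO, the member sum was 0.26 (0.23 to 0.29) in macrophage-gated and -0.050 (-0.060 to -0.041) in prehypertrophic-gated cells against the E14.5 control. Under each other scaling the prehypertrophic value turned positive, to 0.021 relative to all genes. Cox4i2 there was 1.24 (0.73 to 1.78) in osteogenic-gated and -0.49 (-0.91 to -0.062) in fibroblast-gated cells. Prehypertrophic markers in osteogenic-gated cells summed to 401, 248, 652 and 323 CPM over the 4 libraries, and their part was not tested. Ndufb6 was 0.51 (0.045 to 0.98) in macrophage-gated cells and -0.47 (-0.85 to -0.090) in myocytes, and Sdha 0.67 (0.13 to 1.23) in macrophage-gated and -0.35 (-0.69 to -0.011) in osteogenic-gated cells. In the library labelled E14.5dKO, the member sum was 0.14 (0.11 to 0.18) in macrophage-gated and -0.10 (-0.11 to -0.095) in prehypertrophic-gated cells. Here too the prehypertrophic value turned positive relative to all genes (0.080) and under TMM. Cox6b2 in that library was 0.30 in fibroblast-gated and -0.66 in prehypertrophic-gated cells. Its interval lay above 0 in 1 class and below 0 in 4.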

How the results depend on the processing

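Sums, counts of members and skeletal levels were recomputed under the alternatives that apply to each, with the Gdf5 gate for the interzone comparison only. Of the values under alternatives fixed at the start, 164 stayed inside the first value's counting interval, or within 1.5 times for a count, and 128 moved. The removal of cells above the 90th percentile of UMIs was chosen after seeing the data, since doublet calling with Scrublet gave no usable value and its removal was not run, and 21 of its values stayed and 16 moved. Among class, complex and gene values, 6018 stayed, 2458 moved and 23 changed sign after being past 0.32. With the added alternative these numbers were 834, 231 and 4. Of 1341 alternative values for the 145 gene values past 0.32, 5 reversed and 174 were no longer past it.

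Cox4i2 stayed lower in the interzone than in chondrocytes under every alternative, from -2.41 to -1.90 in the E13.5 control, -2.11 to -1.35 in the E14.5 control, -2.47 to -1.48 in E14.5G1KO and -2.44 to -1.05 in E14.5dKO. Cox6b2 stayed higher there, and its lowest values were 0.40, 0.40, 0.58 and 0.52. Sdhd stayed lower in skeletal cells of E14.5G1KO (-0.44 to -0.35) and of E14.5dKO (-0.42 to -0.20). Atp5k ran from -0.56 to -0.34 with age and from 0.44 to 0.52 in E14.5G1KO.

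Values that moved follow, as log2 ratios, numbers of members past the limit or levels. A count whose share of all genes under the same alternative is not given in the Results is not read against all genes. With the reduced denominator, interzone sums were -0.065, -0.074, -0.067 and -0.15, interzone members counted as higher were 5 (E14.5 control), and interzone members counted as lower were 6 (E14.5 control) and 14 (E14.5dKO). Myocyte sums were -0.13 (E14.5G1KO), myocyte members counted as higher were 3 (E13.5 control), and skeletal sums were -0.10 (age), 0.098 (E14.5G1KO) and 0.10 (E14.5dKO). Skeletal members counted as lower were 1 (E14.5dKO), and skeletal levels were 36960.2, 34446, 36875 and 36999 CPM, and the cause was not tested.

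Relative to all genes, interzone sums were -0.15, -0.15, -0.15 and -0.28, interzone members counted as higher were 4 (E14.5 control) and 2 (E14.5dKO), and interzone members counted as lower were 12, 10, 11 and 25. Myocyte sums were 0.15, 0.068, 0.016 and -0.043, myocyte members counted as higher were 17 (E13.5 control), 7 (E14.5 control) and 7 (E14.5dKO), and myocyte members counted as lower were 2, 2, 6 and 8. Skeletal sums were -0.015 (age), 0.12 (E14.5G1KO) and 0.21 (E14.5dKO), skeletal members counted as higher were 2 (age) and 12 (E14.5dKO), and skeletal members counted as lower were 1 (age) and 1 (E14.5dKO), and the cause was not tested.

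Under TMM, interzone sums were -0.13, -0.22, -0.23 and -0.39, interzone members counted as higher were 2 (E14.5 control), 2 (E14.5G1KO) and 1 (E14.5dKO), and interzone members counted as lower were 10, 21, 18 and 40. Myocyte sums were 0.089, 0.051, -0.096 and -0.25, myocyte members counted as higher were 8 (E13.5 control), 6 (E14.5 control) and 1 (E14.5dKO), and myocyte members counted as lower were 2, 2, 13 and 22. Skeletal sums were -0.012 (age), 0.11 (E14.5G1KO) and 0.21 (E14.5dKO), skeletal members counted as higher were 2 (age) and 10 (E14.5dKO), and skeletal members counted as lower were 1 (age) and 1 (E14.5dKO), and the cause was not tested.

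Behind stricter gates, interzone sums were -0.076 (E13.5 control), -0.0051 (E14.5G1KO) and -0.098 (E14.5dKO), interzone members counted as higher were 5 (E13.5 control), and interzone members counted as lower were 10 (E13.5 control), 4 (E14.5 control) and 14 (E14.5dKO). Myocyte sums were -0.086 (E13.5 control) and -0.065 (E14.5 control), myocyte members counted as higher were 1 (E14.5 control) and 4 (E14.5dKO), and skeletal sums were -0.14 (age) and 0.053 (E14.5G1KO). Skeletal members counted as lower were 1 (E14.5G1KO), and skeletal levels were 26743 (E13.5 control), 24291 (E14.5 control) and 25198 (E14.5G1KO) CPM, and the cause was not tested.

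When Gdf5 UMIs gated the interzone, interzone sums were -0.0011 (E13.5 control), 0.064 (E14.5 control) and 0.0025 (E14.5dKO), interzone members counted as higher were 6 (E13.5 control) and 4 (E14.5dKO), and interzone members counted as lower were 1 (E14.5 control), 2 (E14.5G1KO) and 2 (E14.5dKO), and the cause was not tested.

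As means over cells, interzone sums were 0.048 (E14.5 control), 0.039 (E14.5G1KO) and -0.048 (E14.5dKO), interzone members counted as higher were 6 (E13.5 control), and interzone members counted as lower were 3 (E14.5G1KO). Myocyte members counted as higher were 3 (E13.5 control) and 4 (E14.5dKO), skeletal sums were -0.21 (age), 0.049 (E14.5G1KO) and 0.042 (E14.5dKO), and skeletal members counted as higher were 2 (E14.5dKO). Skeletal members counted as lower were 1 (E14.5G1KO), and skeletal levels were 27353, 23688, 24500.2 and 24379.8 CPM, and the cause was not tested.

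From 1 UMI on, interzone members counted as higher were 5 (E13.5 control), interzone members counted as lower were 8 (E14.5G1KO), and myocyte members counted as higher were 8 (E13.5 control) and 4 (E14.5 control). Skeletal members counted as higher were 1 (age), and skeletal members counted as lower were 5 (E14.5G1KO) and 6 (E14.5dKO), and the cause was not tested.

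Without cells above the 90th percentile of UMIs, interzone sums were 0.050 (E14.5 control), 0.042 (E14.5G1KO) and -0.061 (E14.5dKO), interzone members counted as higher were 5 (E13.5 control), and interzone members counted as lower were 1 (E14.5 control). Myocyte sums were -0.0025 (E14.5 control), myocyte members counted as higher were 7 (E14.5 control) and 3 (E14.5G1KO), and skeletal sums were -0.20 (age), 0.047 (E14.5G1KO) and 0.042 (E14.5dKO). Skeletal members counted as lower were 1 (E14.5G1KO), and skeletal levels were 27325, 23739, 24532 and 24436 CPM, and the cause was not tested.

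From 200 UMIs on, myocyte members counted as higher were 3 (E14.5G1KO) and 1 (E14.5dKO), myocyte members counted as lower were 9 (E14.5dKO), and skeletal members counted as lower were 1 (E14.5G1KO), and the cause was not tested.

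Among cells of 1000 to 6000 genes and at most 5% mitochondrial UMIs, myocyte members counted as higher were 1 (E14.5dKO), and skeletal levels were 24412 (E14.5 control) CPM, and the cause was not tested.

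Changes of sign among values past the limit lay mostly in erythroid-gated cells, and the cause was not tested. With age they became 0.054 (sum), 0.11 (complex III), 0.17 (complex IV) and 0.012 (ATP synthase) with the reduced denominator and 0.16 (sum), 0.085 (complex I), 0.22 (complex III), 0.28 (complex IV) and 0.12 (ATP synthase) relative to all genes. In E14.5G1KO they became -0.16 (complex IV) and -0.015 (ATP synthase) relative to all genes and -0.10 (complex IV) under TMM. In E14.5dKO they became -0.025 (sum), -0.18 (complex IV) and -0.034 (ATP synthase) relative to all genes, -0.15 (sum), -0.041 (complex I), -0.30 (complex IV) and -0.15 (ATP synthase) under TMM and -0.21 (complex IV) without the deepest cells. Complex III of macrophage-gated cells in E14.5G1KO became -0.021 behind stricter gates and -0.11 without the deepest cells. Cox4i2 became -0.076 in interzone cells of E14.5G1KO behind stricter gates and -0.057 in those of E14.5dKO as a mean over cells. In prehypertrophic-gated cells of E14.5dKO it became -0.34 behind stricter gates and -0.17 without the deepest cells, and between myocytes and progenitors of E14.5G1KO -0.84 without the deepest cells.

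No paired analysis was possible because each group has a single library. Intervals cover counting error only and say nothing of the spread between embryos, so no difference here has a test. Sex and library cannot be told apart from age in the age comparison, nor from genotype in the comparisons at E14.5. Gates overlap at their borders, and classes of few cells, such as erythroid, myocyte and macrophage, hold few UMIs for single genes. A count of 0 for an isoform at this depth is not absence. Transcripts free in the droplets were not removed, and their part in low values was not tested. Tags near transcript ends do not tell splice forms apart.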

Other observations

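These isoform values in classes of few cells were chosen after they were seen, and no test was run on them. Cox7a1, known as a striated muscle form, stood at 5.53, 9.52, 10.9 and 11.1 CPM in macrophage-gated cells from 1, 5, 7 and 4 UMIs, of 101, 336, 503 and 262 for Cox7a1 and Cox7a2 together. In interzone-gated cells it stood at 0.647, 0.822, 0.640 and 0 CPM and in chondrocyte-gated cells at 0.511, 0.415, 0.249 and 0.215 CPM. Erythroid-gated cells held 33, 14, 8 and 5 Cox6b2 UMIs, of 118, 56, 45 and 27 for Cox6b1 and Cox6b2 together. This was the highest share of Cox6b2 among the classes in every library.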
